A study of Mus musculus with 6 samples.

Results

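Complement genes were followed in whole lung RNA of mice labelled C57, DBA and ICR, with or without exposure to cigarette smoke. The 8 genes of interest were Hc, C3, C1qa, C1qb, C2, C4b, Cfb and Cfd, and the rule took every probe set whose single symbol in the platform annotation was one of them. It found 8 probe sets of the 12488 on the array, for 5 of the 8 genes: Hc, C1qa, C1qb, C2 and Cfb. C3 and Cfd had no probe set named by that annotation, and the 2 probe sets annotated to C4b name C4a as well, so these 3 genes were not analysed here. The series consists of 6 Affymetrix arrays: for every strain, 1 of control lung and 1 of smoked lung, each titled mouse 1 of its group. Smoked mice were exposed to the smoke of 3 cigarettes a day on 5 days a week for 4 weeks, and controls were labelled normal lung. As to age, sex, substrain, air treatment of controls, and single or pooled mice per array: the sources used here give none of these. ICR is an outbred stock.

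Complement is a cascade of plasma proteins, made largely in the liver and also by cells in tissues, that tags particles, attracts leukocytes and perforates membranes. The classical pathway starts when C1q, built from A, B and C chains and made mainly by macrophages, binds antibody or other surfaces. C2 and factor B, the product of Cfb, are related serine proteases that cleave C3 and C5 in the classical and alternative pathways. Hc encodes C5, which is split into C5a, an attractant of neutrophils, and C5b, which nucleates the membrane attack complex. Mice of the DBA/2 substrain are known to carry a small frameshift deletion in Hc and to lack C5 in serum; the labels say only DBA, and no genotype was measured.

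Deposited intensities are on a linear scale. They were analysed as log2 of the intensity plus 8.05 and quantile normalized between arrays, since array medians ranged from 25.9 (ICR smoked) to 84.8 (DBA smoked). For the beta-actin control transcript, the ratio of 3' to 5' signal, a sign of RNA quality, was 2.75 and 2.51 in C57 (control array first), 1.46 and 1.67 in DBA, and 1.63 and 4.75 in ICR. For Gapdh it was 1.69 and 1.38, 0.967 and 0.952, and 1.11 and 2.39. Alveolar type II markers, which include the surfactant genes Sftpb, Sftpc and Sftpd, summed to intensities of 10030 to 20240 on all arrays. Neutrophil markers summed to 16840 on the DBA control array and to 983 to 2893 elsewhere, and hepatocyte markers to 4222 on the DBA smoked array and to 63.7 to 499 elsewhere. Skeletal muscle markers summed to 5587 and 3899 on the C57 arrays, 735 and 337 in DBA, and 136 and 78.1 in ICR. In the strain comparisons limma called 5 of 5 tested muscle markers lower in DBA and 5 of 5 lower in ICR than in C57, and 1 of 5 lower in ICR than in DBA. It also called the hepatocyte marker Serpina1b higher in DBA than in C57, and Sftpb lower in ICR than in C57. Lists for adipocytes, fibroblasts, mesothelium, B cells and the interferon response had 0 genes called by limma in the smoke and strain comparisons. In whole lung, fewer cells of a type and less RNA per cell cannot be told apart.

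Of the 8 probe sets, 5 passed the filter on low signal: Hc, C1qa, both probe sets of C1qb, and 1 of 2 for C2. Both Cfb probe sets and the other C2 probe set did not pass. A probe set was called at a limma adjusted p below 0.05 over all 7453 probe sets tested. Each strain had 1 control and 1 smoked array (n = 2), each exposure 3 arrays, and the p-values measure only the spread among these 6 arrays. For each probe set, limma draws that spread towards the one common to probe sets of like level.

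**Figure D1:**
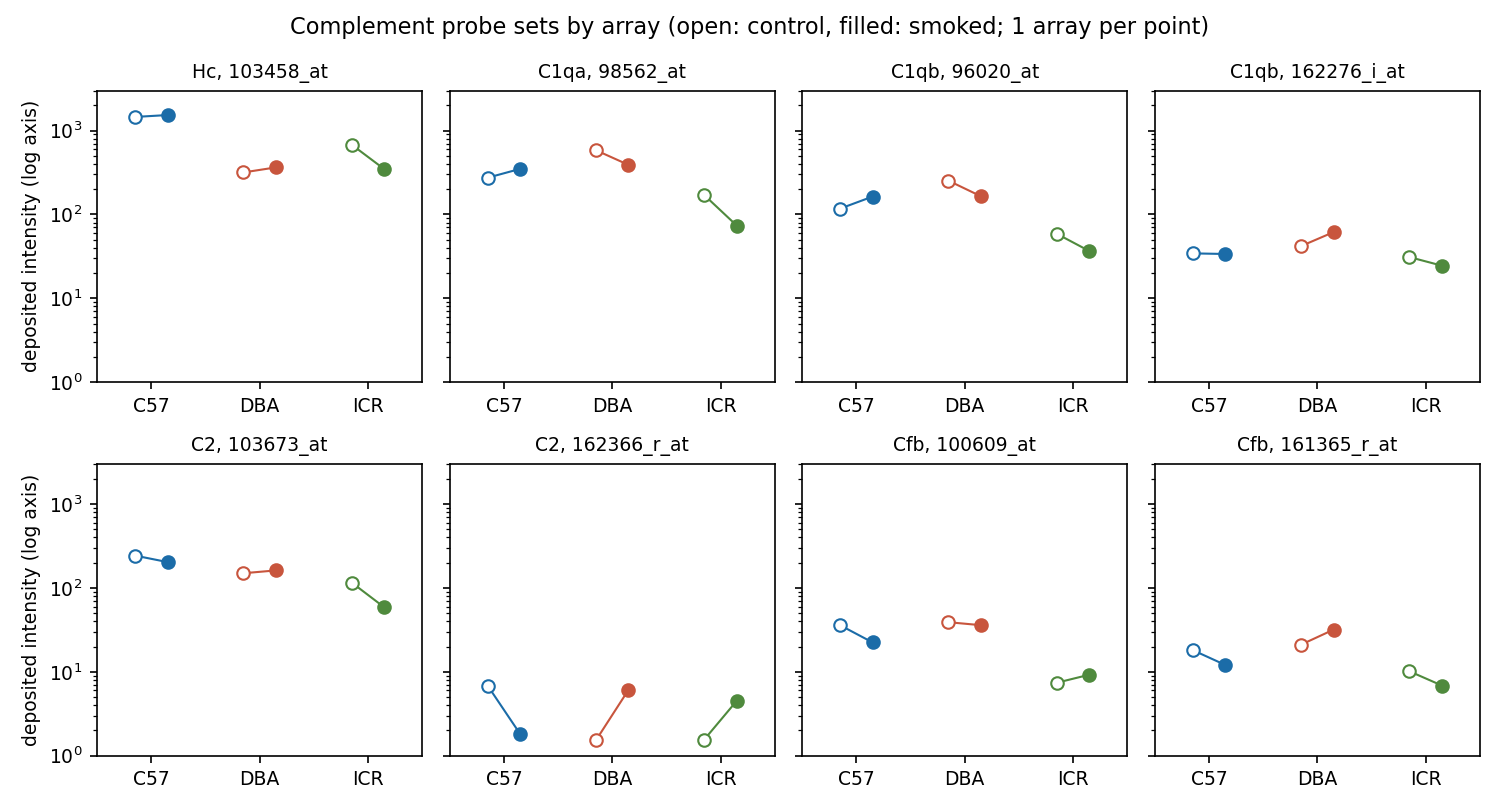
Deposited intensity (log axis) of the 8 complement probe sets on each of the 6 arrays, by strain, with control arrays as open and smoked arrays as filled points joined by a line. Hc reads 1452 and 1529 in C57 and 317 and 363 in DBA, while the second C2 probe set stays at or below 6.83 on every array.

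Hc, the gene of C5, differed most between strains. Its probe set (103458_at, gene on chromosome 2) read 1452 on the C57 control array and 1529 on the C57 smoked array, 317 and 363 in DBA, and 676 and 346 in ICR. On the normalized log2 scale the levels were 10.27 and 10.34 in C57, 8.14 and 8.04 in DBA, and 9.51 and 9.50 in ICR. The strain means were 10.31 ± 0.051 in C57, 9.50 ± 0.0074 in ICR and 8.09 ± 0.077 in DBA (SD, n = 2 arrays). The normalized order was therefore C57, ICR, DBA, with no overlap between arrays of different strains. The deposited value of the ICR smoked array, 346, lay between both DBA values, so the place of ICR above DBA on that array came with the normalization. By rank within its array, which quantile normalization keeps and which is therefore not separate evidence of the order, Hc stood above 97.4% and 97.6% of all probe sets on the C57 arrays, 94.6% and 94.5% on the ICR arrays, and 83.2% and 81.9% on the DBA arrays.

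The Hc level was lower in DBA than in C57 by a log2 difference of -2.21 (SE 0.20, limma adjusted p = 0.00186), a 4.64-fold difference. It was -2.12 between the control arrays and -2.31 between the smoked arrays. By p-value Hc ranked 7 among the 7453 probe sets, of which 1.73% were called in this comparison, and of the 5 complement probe sets tested it was the 1 called. The difference ranged from -2.41 to -2.11 over the 14 alternatives and was called in all 14 of them.

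ICR was higher than DBA in Hc by log2 1.41 (SE 0.20, limma adjusted p = 0.0142), or 2.66-fold, with 1.36 between controls and 1.46 between smoked arrays. Here 1.17% of all probe sets were called, and Hc was the 1 called among the 5. The call rested on both ICR arrays and on scaling: the adjusted p was 0.10 without the ICR control array (log2 1.42), 0.0913 without the ICR smoked array (1.41), and 0.449 without scaling (0.50, when the median over all probe sets was -0.89). Between ICR and C57 the Hc difference was -0.80 (SE 0.20), not called (adjusted p = 0.0878) in a comparison that called 2.29% of probe sets. With arrays scaled to a common median it was -1.01 and called (adjusted p = 0.0407).

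With smoke, Hc had the smallest average difference of the 5 probe sets, -0.02 on the log2 scale (SE 0.17, adjusted p = 1.0). Within strains the normalized difference was 0.07 for the C57 pair, -0.11 for DBA and -0.01 for ICR. These small differences are those of the normalized values: in the deposited values the smoked to control ratio was 1.05 for C57, 1.15 for DBA and 0.512 for ICR, whose smoked array was the dimmest.

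Markers of other tissues also differed between strains. Markers of hepatocytes, a source of plasma C5, summed to 499 and 4222 on the DBA arrays, where Hc was lowest, and to 294 and 63.7 on the C57 arrays, where Hc was highest. Skeletal muscle markers were highest in C57, as Hc was, but lower in ICR than in DBA, unlike Hc. The 3' to 5' ratio of beta-actin was also higher in C57 (2.75 and 2.51) than in DBA (1.46 and 1.67). The part of these in the Hc difference was not tested. Among the genes nearest to Hc on the chromosome, Traf1, a signalling adaptor of tumour necrosis factor receptors, had mean normalized levels of 6.91, 6.76 and 6.70 in C57, DBA and ICR. Cntrl, a centriole protein gene on the other side, had 5.43, 6.21 and 5.91. Psmd5, a chaperone gene of the proteasome, had 8.35, 8.12 and 8.14. Psmd5 followed the order of Hc with far smaller differences, and Traf1 and Cntrl had other orders.

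The genes whose normalized levels were most like Hc over the 6 arrays were Bex4 (r = 0.992), Dctn3 (r = 0.992) and Ip6k1 (r = 0.988), on chromosomes X, 4 and 9. These correlations are descriptions over 6 arrays that share their normalization, and 34 of 5734 genes reached at least 0.95.

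The sequence before the Hc start site is shown because Hc carried the largest strain difference. It covers 250 bases of the C57BL/6J reference (RefSeq, GRCm38.p6, chr2:35061413-35061662, minus strand), with the TATA box letters TATAAA in capitals. A longer predicted Hc transcript begins further upstream.
Hc: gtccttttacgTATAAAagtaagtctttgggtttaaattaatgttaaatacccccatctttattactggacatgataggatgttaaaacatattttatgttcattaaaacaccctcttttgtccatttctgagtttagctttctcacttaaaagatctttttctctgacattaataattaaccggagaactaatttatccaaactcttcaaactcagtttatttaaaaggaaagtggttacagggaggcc
The match begins at position -239, counted from the start site, and whether it serves as a TATA box was not tested. TATAAA on either strand occurs in 12.4% of 32851 RefSeq promoters of this length.

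C1qa and C1qb encode the A and B chains of C1q. The C1qa probe set (98562_at, chromosome 4) read 274 and 349 in C57 (control array first, here and below), 582 and 389 in DBA, and 170 and 73.5 in ICR. Of the C1qb probe sets, 96020_at read 117 and 163 in C57, 252 and 164 in DBA, and 58.7 and 36.6 in ICR. Both genes had their highest value on the DBA control array and their lowest on an ICR array. The third chain, C1qc (92223_at), which lies between C1qa and C1qb on the chromosome and was not among the chosen genes, read 270 and 343 in C57, 445 and 256 in DBA, and 127 and 81.3 in ICR.

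**Figure D2:**
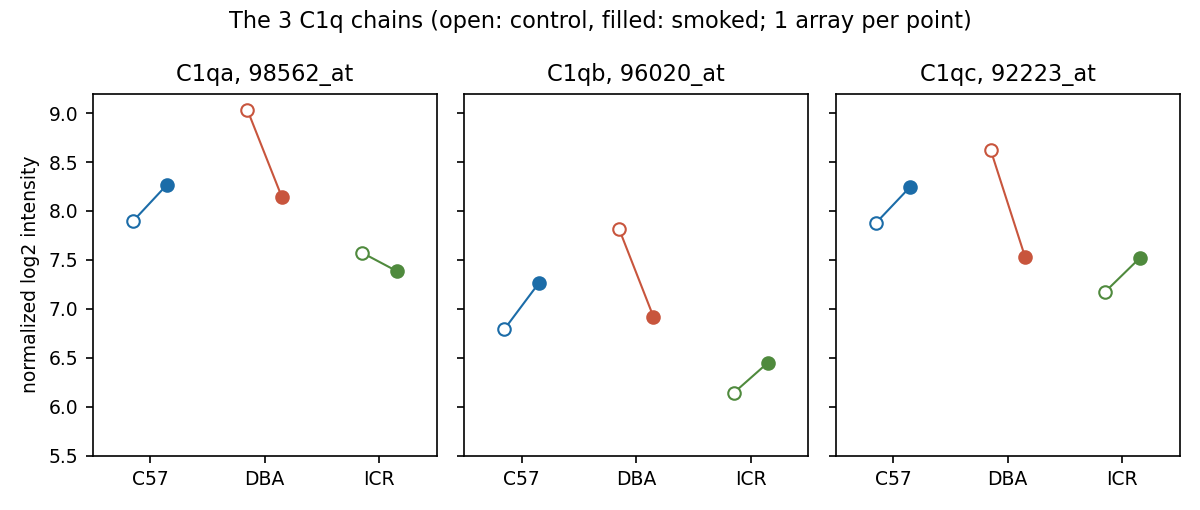
Normalized log2 intensity of the C1q chain genes C1qa, C1qb and C1qc on each array, with control arrays as open and smoked arrays as filled points joined within a strain. In all 3 panels the DBA control array is highest and the DBA line goes down, by log2 values from -1.09 to -0.89, while the C57 line goes up by 0.37 to 0.47.

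On the normalized log2 scale the strain means of C1qa were 8.59 ± 0.63 in DBA, 8.08 ± 0.27 in C57 and 7.48 ± 0.13 in ICR (SD, n = 2 arrays). For C1qb at 96020_at they were 7.37 ± 0.64, 7.03 ± 0.33 and 6.30 ± 0.22 in the same order. DBA and C57 arrays overlapped for both genes and did not differ beyond their spread, while both ICR arrays lay below the arrays of the other strains. Separation of ICR from 1 strain at a time, in either direction, was common: arrays did not overlap for 51.2% of probe sets in ICR against C57 and 47.9% in ICR against DBA. The share of probe sets with ICR below both strains was not counted.

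None of these C1q differences was called. ICR against DBA gave -1.11 for C1qa (SE 0.31, limma adjusted p = 0.138) and -1.07 for C1qb (SE 0.35, adjusted p = 0.200), or 2.15-fold and 2.10-fold. Unscaled values gave -2.01 and -1.96, both called (adjusted p = 0.0334 for each), in a fit whose median over all probe sets was -0.89. Leaving out the DBA smoked array gave -1.60 and -1.72, again called, with the control array alone standing for DBA. C1qa was also called without the C57 control array or without the C57 smoked array. Leaving out a C57 array changes the spread in this comparison but not the estimate, so these calls add nothing about the difference. Each fit without an array has 1 residual degree of freedom. ICR against C57 gave -0.60 for C1qa and -0.73 for C1qb (adjusted p = 0.346 and 0.314), and DBA against C57 gave 0.50 and 0.34 (adjusted p = 0.622 and 0.805).

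The second C1qb probe set, 162276_i_at, did not follow the first. It read 34.3 and 33.7 in C57, 41.9 and 61.5 in DBA, and 31.0 and 24.5 in ICR, lower and flatter than 96020_at. Over the 6 arrays the normalized values of both correlated at r = -0.367. Its ICR mean was the highest of the strains, 5.66 against 5.49 in DBA and 5.34 in C57, and its differences of 0.31 from C57 and 0.17 from DBA were not called (adjusted p = 0.640 and 0.830). The C1qb pattern described here is therefore that of 96020_at alone.

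With smoke the C1q genes went different ways by strain. C1qa was 0.38 higher on the smoked array in C57, 0.89 lower in DBA (log2 -0.89) and 0.19 lower in ICR (-0.19). C1qb differed by 0.47, -0.90 and 0.31, and C1qc by 0.37, -1.09 and 0.34, in C57, DBA and ICR. The DBA values, 1.85-fold for C1qa and 1.86-fold for C1qb, were larger in size than those of 96.1% and 96.2% of probe sets in the DBA pair, in which 3.05% differed at least 2-fold. There is no replicate check on a difference within a strain.

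**Figure D3:**
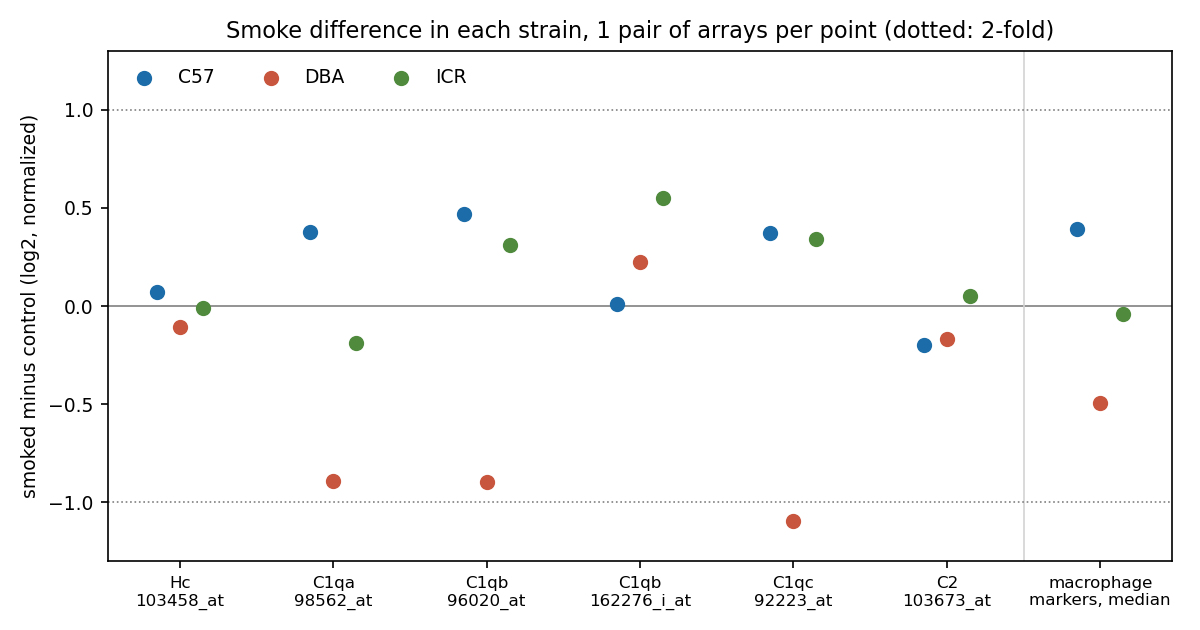
Smoked minus control difference (log2, normalized) in C57, DBA and ICR, 1 pair of arrays per point, for the complement probe sets that passed the filter, for C1qc, and for the median of 10 macrophage markers. The C1q chain points of DBA lie at -0.89, -0.90 and -1.09, the Hc points within 0.11 of 0, and dotted lines mark a 2-fold difference.

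Averaged over the strains, the smoke difference was -0.23 for C1qa (SE 0.25) and -0.04 for C1qb at 96020_at (SE 0.29), both at a limma adjusted p of 1.0. Without the DBA pair these became 0.10 and 0.39, so the sign of both rested on DBA. The test of whether the DBA pair differed from the other pairs gave -0.98 for C1qa (SE 0.53, adjusted p = 1.0), -1.29 for C1qb (SE 0.55, adjusted p = 0.784) and -1.45 for C1qc (SE 0.53, adjusted p = 0.432), none called, where 0.711% of all probe sets were. Of the 5 complement probe sets, the first of C1qb was the 1 with an unadjusted limma p below 0.05 in this test (0.0191), as were 294 of all 7453. This fit has 1 residual degree of freedom, so its p-values lean on the spread that limma shares between probe sets. In data simulated with normal noise of the spread that limma estimated, it recovered 7.14% of 2-fold and 64.3% of 4-fold changes. It also called 13 unchanged probe sets there. For the C57 pair the same test gave 0.91 for C1qa and 0.76 for C1qb, and for the ICR pair 0.07 and 0.52 (adjusted p from 0.701 to 1.0), against 0.134% and 0% of probe sets called.

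Macrophage markers moved with the C1q genes in the C57 and DBA pairs. On the smoked array 9 of 10 were higher in C57, 1 of 10 in DBA and 3 of 10 in ICR, with median differences of 0.39, -0.49 and -0.04. Their summed intensities were 4528 (control) and 6630 (smoked) in C57, 8085 and 5759 in DBA, and 6506 and 3690 in ICR. This movement was not particular to macrophage markers. The 3 B cell markers measured had median differences of 0.53, -0.96 and 0.17 in C57, DBA and ICR. The part of either list in the C1q values was not tested. Of the 6 macrophage markers tested, Chil3, a chitinase-like protein of alveolar macrophages, was called in 2 tests of a pair against the others. Its smoke difference was higher in the C57 pair (2.86, SE 0.54) and lower in the DBA pair (-3.15, SE 0.48). For the ICR pair it was 0.29 (SE 1.54), not called. Each test sets 1 pair against the others with 1 residual degree of freedom. The tests use the same arrays and are not independent. The DBA control array also had the highest neutrophil markers. Their part in the C1q values was not tested. Between strains the median of the 6 tested macrophage markers was 0.32 in DBA against C57, where C1qa and C1qb had 0.50 and 0.34, and 0.66 in ICR against C57 and 0.24 in ICR against DBA, where C1qa and C1qb were below 0.

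C1qa and C1qb correlated at r = 0.955, and C1qb was the 6th closest of 5734 genes to C1qa. C1qb and C1qc correlated at r = 0.952, with C1qc the 13th closest to C1qb, and C1qa and C1qc at r = 0.870, with C1qc the 92nd closest to C1qa. The genes most like C1qa were Mrc2 (r = 0.980), H2-DMb1 (r = 0.977) and Ptcd2 (r = 0.976), and those most like C1qb were Tcirg1 (r = 0.989), Clcn7 (r = 0.984) and Ctsb (r = 0.977). All are descriptions over 6 arrays with common normalization, and 7 and 15 genes reached 0.95 for C1qa and C1qb.

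The sequences before the start sites of C1qb and C1qc, 250 bases each, are shown because they are the C1q chain genes with an entry in the promoter table (C57BL/6J reference, RefSeq, GRCm38.p6, minus strand, chr4:136886201-136886450 and chr4:136892915-136893164). Capitals mark the core letters of PU.1, a transcription factor of macrophages, GAGGAA on the strand shown in C1qb and on the other strand in C1qc.
C1qb: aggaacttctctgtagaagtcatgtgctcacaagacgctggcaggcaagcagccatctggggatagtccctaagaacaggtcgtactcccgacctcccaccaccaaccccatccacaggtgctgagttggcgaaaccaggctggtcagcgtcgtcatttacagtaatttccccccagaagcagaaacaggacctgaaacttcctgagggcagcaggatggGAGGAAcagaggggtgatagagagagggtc
C1qc: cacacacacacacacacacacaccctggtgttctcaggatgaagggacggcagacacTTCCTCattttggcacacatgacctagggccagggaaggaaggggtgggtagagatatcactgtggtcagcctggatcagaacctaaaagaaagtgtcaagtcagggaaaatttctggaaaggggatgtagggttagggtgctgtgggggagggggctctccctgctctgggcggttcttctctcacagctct
The match begins at position -30 from the start in C1qb and at position -193 in C1qc, and these letters occur in 23.3% of RefSeq promoters of this length. On both strands of the Hc, C1qb and C1qc windows, the letters searched for AP-1 (TGANTCA, in 6.75% of promoters) and C/EBP (TTGCGNAA, in 0.670%) were not found, nor was TATAAA in C1qb and C1qc or GAGGAA in Hc.

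C2, the protease of the classical pathway, was highest in C57. Its probe set 103673_at (chromosome 17) read 243 and 203 in C57, 150 and 162 in DBA, and 116 and 58.7 in ICR. Normalized strain means were 7.65 ± 0.14 in C57, 7.07 ± 0.035 in ICR and 6.98 ± 0.12 in DBA (SD, n = 2 arrays). Both C57 arrays lay above all others, and ICR and DBA arrays overlapped.

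The C2 difference was -0.67 in DBA against C57 (SE 0.24, limma adjusted p = 0.300), or 1.59-fold, and -0.58 in ICR against C57 (SE 0.24, adjusted p = 0.251), or 1.5-fold. Neither was called. Arrays of DBA and C57 did not overlap for 52.5% of all probe sets, and for 3 of the 5 complement probe sets. ICR against DBA gave 0.09 (SE 0.24, adjusted p = 0.894), and -0.85 without scaling, in that fit close to its median of -0.89. The smoke difference of C2 was -0.11 (SE 0.20, adjusted p = 1.0), with -0.20 in C57, -0.17 in DBA and 0.05 in ICR. The other C2 probe set, 162366_r_at, read between 1.53 and 6.83, below the added constant of 8.05 on all 6 arrays, and carries no usable pattern.

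The genes most like C2 over the 6 arrays were Mt2 (r = 0.997), Nop56 (r = 0.986) and the muscle gene Tnnc2 (r = 0.982), and 40 genes reached 0.95. Skeletal muscle markers were highest in C57, as C2 was, as was the 3' to 5' ratio of beta-actin against DBA, and the part of both in the C2 values was not tested. C2 lies beside Cfb in the class III region of the major histocompatibility complex. Among its measured neighbours, Nelfe, of the NELF complex that pauses RNA polymerase, had normalized means of 7.92, 7.78 and 7.50 in C57, DBA and ICR. Skiv2l, an RNA helicase of the cytoplasmic exosome, had 7.76, 7.40 and 7.34, and Ehmt2, a histone methyltransferase, 8.51, 8.40 and 7.96. Nelfe, Skiv2l and Ehmt2 were highest in C57, as C2 was, and so were Stk19, Dxo, Slc44a4, Neu1 and Fkbpl. Zbtb12, which lies directly beside C2, was highest in DBA (3.90, 4.80 and 4.24). Neither Zbtb12 nor Fkbpl passed the filter. Also highest in DBA were Atf6b, Cyp21a1 and Tnxb, tenascin X, further along the region (Tnxb 8.59, 8.90 and 8.30).

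Cfb, factor B of the alternative pathway, was low at both probe sets. At 100609_at it read 35.8 and 22.4 in C57, 39.0 and 35.9 in DBA, and 7.40 and 9.23 in ICR. At 161365_r_at it read 18.1 and 12.1 in C57, 21.0 and 31.8 in DBA, and 10.1 and 6.86 in ICR. Both probe sets were lower on the ICR arrays than on any other array in the deposited values, and each had 1 ICR array below the added constant. On the normalized scale the ICR and C57 arrays overlapped at 161365_r_at.

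Neither Cfb probe set passed the filter, so differences come from the fit without it. ICR against C57 gave -0.76 at 100609_at and -0.16 at 161365_r_at, and ICR against DBA gave -0.75 and -0.38, with no call at either. DBA against C57 gave -0.01 and 0.22. With smoke, 100609_at had differences of -0.48 (C57), -0.31 (DBA) and 0.71 (ICR), and 161365_r_at had -0.34, 0.23 and 0.19. The probe sets thus disagreed in sign in DBA, and correlated at r = 0.708 over the arrays. The genes most like Cfb at 100609_at were Bri3, Krt86 and Hcn2 (r = 0.996, 0.994 and 0.994), with 46 genes at or above 0.95.

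**Figure D4:**
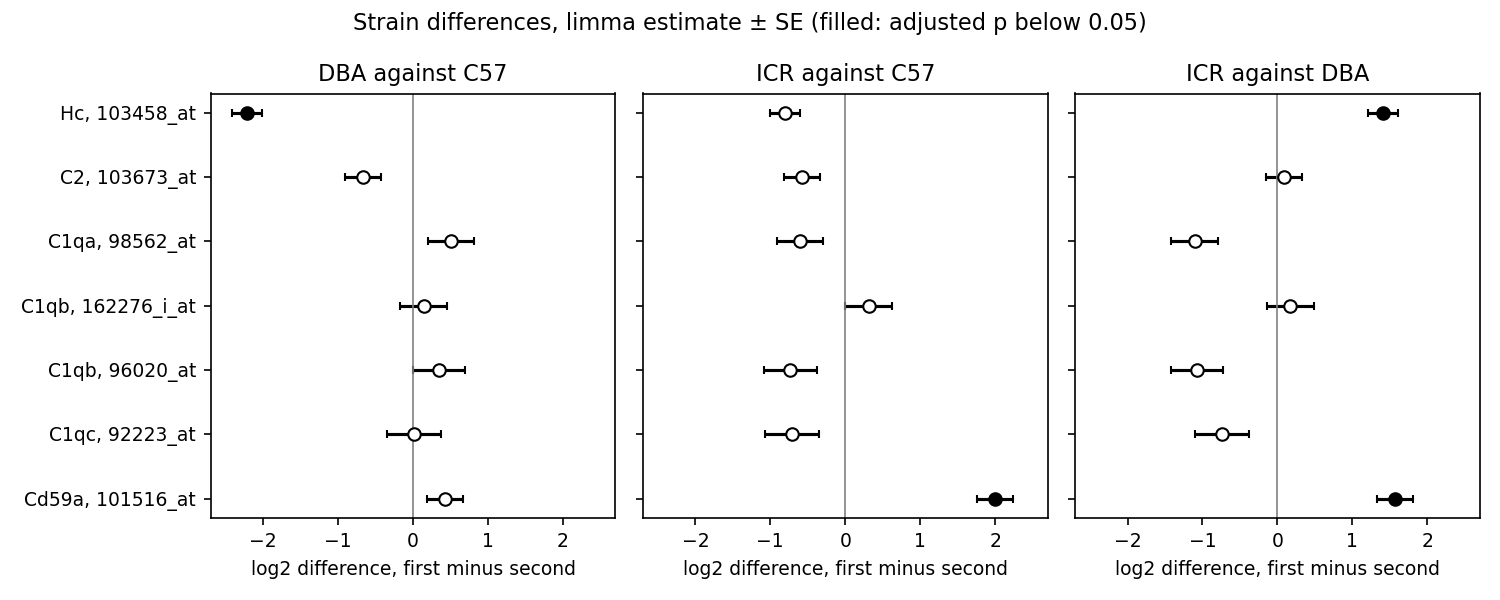
Limma estimate ± SE of the log2 difference between strains for the 5 complement probe sets tested and for C1qc and Cd59a, with filled points at an adjusted p below 0.05. Hc is called in DBA against C57 at -2.21 and in ICR against DBA at 1.41, and Cd59a in both ICR comparisons at 2.0 and 1.57.

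Across the 5 complement probe sets tested, limma called 0 for the average smoke effect, where 0.0403% of all probe sets were called and 122 of 7453, 0 of them complement probe sets, had an unadjusted p below 0.05. None differed 2-fold between control and smoked arrays in any strain, against 1.21% of probe sets in C57, 3.05% in DBA and 6.48% in ICR. Only 162276_i_at of C1qb had the same direction in all 3 strains, a pattern held by 17.6% of probe sets, with differences of 0.01, 0.22 and 0.55 in C57, DBA and ICR and an average of 0.26 (SE 0.26, adjusted p = 1.0).

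The other genes of the pathway were taken from a list of 38, of which 28 had a probe set named here and 14 passed the filter. For the average smoke effect 0 of the 14 were called, with a median of -0.01 against 0.01 over all 5735 genes tested. The largest values were those of Itgb2, the beta subunit of the complement receptors that bind cleaved C3 (-0.66, SE 0.35), Cfp, properdin, which stabilizes the alternative pathway convertase (-0.37), C5ar1, the receptor of C5a (-0.26), and Cd59b, an inhibitor of the membrane attack complex (0.21). All 4 had an adjusted p of 1.0. In the DBA pair Itgb2, C5ar1 and Cfp differed by -1.81, -0.98 and -0.84, with intensities on the control and smoked arrays of 344 and 119, 161 and 99.1, and 109 and 71.5. Itgb2 and C5ar1 are leukocyte genes, and the neutrophil markers of that pair went from 16840 to 1222 in summed intensity. Their part in these values was not tested. The test of the DBA pair against the others did not call Itgb2 (-1.73, SE 0.54, adjusted p = 0.152).

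Between strains, 1 of the 14 was called. Of all 5735 genes tested, 93 were called in DBA against C57, 137 in ICR against C57 and 62 in ICR against DBA. Cd59a, the broadly expressed mouse gene of CD59, which blocks assembly of the membrane attack complex, was higher in ICR. It read 392 and 259 on the ICR control and smoked arrays, 136 and 124 in C57, and 185 and 225 in DBA, so that the ICR arrays lay above all others even in the deposited values. The normalized difference was 2.0 against C57 (SE 0.24, limma adjusted p = 0.00407) and 1.57 against DBA (SE 0.24, adjusted p = 0.0173). It was still called in 12 of 14 alternatives against C57 and in 10 of 14 against DBA. Against C57 it was lost without scaling (1.25, adjusted p = 0.245) and without the ICR smoked array (1.81, adjusted p = 0.0517). Against DBA it was lost without scaling (0.62, adjusted p = 0.391), without the filter (1.57, adjusted p = 0.0506), and without the ICR control (1.77, adjusted p = 0.0912) or smoked array (1.38, adjusted p = 0.0969). Cd59b had -0.31 and -0.40 in the same comparisons and was not called (adjusted p = 0.614 and 0.534).

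The list medians were 0.05 in ICR against C57, -0.10 in ICR against DBA and 0.11 in DBA against C57, where all genes had -0.03, 0.02 and -0.05. Itgb2 was next after Cd59a in ICR against C57 (1.19, SE 0.42, adjusted p = 0.184), followed by C1qc (-0.72, adjusted p = 0.338) and Clu, clusterin, a plasma inhibitor of the attack complex (-0.47, adjusted p = 0.309). Against DBA, ICR had -0.73 for C1qc, -0.48 for Clu and 0.42 for Itgb2 (adjusted p = 0.367, 0.338 and 0.664). In DBA against C57 the largest values, Itgb2 at 0.76, Cfp at 0.44, Cd59a at 0.43 and C5ar1 at 0.38, were not called (adjusted p from 0.575 to 0.750). Without the DBA control array Itgb2 turned to -0.10 and C5ar1 to -0.15, and without the DBA smoked array Itgb2 was 1.63 and called. In ICR against C57, Itgb2 was called in 3 of 14 alternatives, all with an array left out. They were the C57 smoked array (1.86) and either DBA array (1.19), whose loss changes the spread but not the estimate. In ICR against DBA, C1qc was called without the DBA smoked array (-1.46). Each such fit leaves 1 array in a strain and 1 residual degree of freedom. The 3 strain comparisons share arrays pairwise and are not independent of each other.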

How the data were processed

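Total lung RNA from 6 samples was reverse-transcribed, biotin-labelled and hybridized to Affymetrix arrays, per the labels' protocols. The deposited values are linear intensity per probe set (lowest 0.0305, highest 10579). How the authors summarized and scaled them is not stated in the labels, and no detection calls were used. The number of arrays limits the precision.

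Between arrays the median log2 value differed by up to 1.45, above the limit of 0.1 for leaving arrays unscaled. Values were taken as log2 of the intensity plus 8.05 (20th percentile of all values), quantile normalized, and stripped of 66 control probe sets; means above the 40th percentile left 7453 of 12422. Differences of low probe sets depend on the added constant. Genes were named from the platform annotation (10855 probe sets with 1 symbol, 396 with several, 1237 with none), with chromosomes from RefSeq; 10839 matched.

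Limma 3.58.1 in R 4.3.3 (lmFit, eBayes with trend) fitted strain and exposure (2 residual degrees of freedom), and an extra smoke effect for 1 strain at a time (1 residual degree of freedom), two-sided, with Benjamini-Hochberg adjustment over all probe sets kept. Within-strain differences have no test. The fits were tested on simulated data. Alternatives changed the added constant, the scaling, the filter, the mean trend and prior of limma and the probe set of a gene, and left out single arrays or pairs. A gene stands at its probe set with the highest mean. All members are named; of the other complement genes, those called and the 4 largest per comparison; and the 3 genes most correlated with each member. Chil3, the neighbours, and the genes of the closing section were named after their values were seen. The members and lists were chosen with earlier results of these data known. Plots used matplotlib 3.10.9.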

Additional observations from a re-analysis of the deposited data

How the results depend on the processing

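With 1 array per group, precision is set by 6 arrays, and signal over background is not known. No paired analysis was possible by replicate number, because each group holds only number 1; the smoke fit is itself paired by strain (3 pairs), and without the strain block it again called 0 complement probe sets, and 0 of all probe sets in place of 3. Of the alternative values of single probe sets, 598 kept direction and side of the threshold, 39 reversed, 12 gained and 9 lost a call; those for other complement genes were chosen after seeing the data. The cause of the changes below was not tested. Log2 differences are given. The count of complement probe sets called in ICR against C57 became 1 with median scaling. In ICR against DBA it was 2 without scaling and 0 to 3 when single arrays were left out: 0 without either ICR array, 2 without either C57 array and 3 without the DBA smoked array. Over all probe sets, calls in either direction were 129 in DBA against C57, 171 in ICR against C57 and 87 in ICR against DBA. Without scaling, higher and lower calls were 64 and 21, 7 and 138, and 4 and 257 in the same order. With median scaling they were 54 and 85, 50 and 175, and 31 and 38. Over the alternatives the calls ranged from 0 to 11 for smoke, 66 to 298, 32 to 517 and 12 to 261 in those strain comparisons, and 0 to 14, 7 to 64 and 0 to 1787 for the responses of C57, DBA and ICR.

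Without scaling, ICR against C57 gave -0.24 for the second C1qb probe set, and ICR against DBA gave -0.85 for C2, -0.72 for the second C1qb probe set and -0.51 for Itgb2. The C57 response of C2 was then 0.14. The DBA response was then 0.63 for Hc, 0.68 for C2 and 0.62 for the second C1qb probe set. The ICR response was then -1.08 for Hc, -0.82 for C2, -0.49 and -0.51 for the second and first C1qb probe sets, -1.01 for C1qa and -0.38 for C1qc, beside a median over all probe sets of -0.99. Median scaling gave -0.16 for C1qc in DBA against C57, and ICR responses of -0.12 for Hc and -0.044 for C1qa. The second C2 probe set gave 0.21 for smoke, 0.084 in ICR against C57 and 0.28 for the DBA response. The second C1qb probe set gave 0.26 for smoke, 0.31 in ICR against C57, 0.17 in ICR against DBA and -0.38 for the C57 response. Leaving out a pair of arrays, the smoke difference ran from -0.059 to 0.031 for Hc, -0.29 to 0.39 for C1qb, -0.54 to 0.10 for C1qa, -0.49 to 0.10 for C5ar1 and -0.37 to 0.36 for C1qc, each highest without DBA and lowest without C57. Leaving out single arrays, DBA against C57 ran from -0.045 to 0.33 for the second and -0.30 to 0.99 for the first C1qb probe set, -0.10 to 1.63 for Itgb2, -0.15 to 0.92 for C5ar1 and -0.71 to 0.74 for C1qc. ICR against DBA ran from -0.028 to 0.21 for C2, -0.045 to 0.39 for the second C1qb probe set and -0.44 to 1.29 for Itgb2.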

Other observations

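Among the other complement genes, 4 picked after their values were seen had their highest deposited value on the DBA smoked array. Highest there too were C8g, Serping1, Clu, Cd93, Cd59b, Cd55, Cd46 and Masp1. The share of all probe sets highest on it was not counted. That array had the highest median intensity, 84.8, and hepatocyte markers summed to 4222 on it. C9, the pore-forming subunit of the attack complex, read 67.4 there and 3.23 to 12.04 on the other arrays. C4bp, which inhibits the C3 convertase of the classical pathway, read 19.9 there and at most 13.6 elsewhere. On the normalized log2 scale, however, C4bp was highest on the ICR control array, 4.52 against 4.40 on the DBA smoked array. Cfi, the protease factor I that inactivates C3b, read 14.6 on the DBA smoked array and at most 3.02 elsewhere. Vtn, vitronectin, read 122 on the DBA smoked array, and from 13.2 to 66.4 on the other arrays. Other complement genes made in the liver peaked elsewhere: Mbl1 at 17.1 on the C57 control array, Mbl2 at 9.06 on the ICR smoked array and Masp2 at 18.3 on the ICR control array, against 5.85, 5.51 and 17.03 on the DBA smoked array. C9, C4bp and Cfi did not pass the filter, and Vtn was not called in the smoke or strain comparisons.

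Itgam, the alpha subunit that pairs with Itgb2 in complement receptor 3, read 103 on the DBA control array, 34.1 on the ICR control array and at most 13.8 on the other arrays. It did not pass the filter either. Serping1, the C1 inhibitor, read 638 to 1731, with normalized means of 10.19, 10.36 and 10.41 in C57, DBA and ICR, and Cd93, once described as a C1q receptor, 932 to 1817.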
